A study of Mus musculus with 9 samples.

Results

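This account describes RelA and RelB binding near 9 mouse genes, the interferon regulatory factor genes Irf1, Irf2, Irf3, Irf5, Irf7, Irf8 and Irf9 and the signal transducer genes Stat3 and Stat5a. The genes were chosen by name, and a peak was assigned to a gene when its centre lay within 50 kb of the gene's start site in mm9. They are 9 of 22380 annotated protein-coding genes, and 29 of the 14781 binding sites found at 6 h lay near them. The cells were NfkB2-/- mouse embryonic fibroblasts (MEFs), a line that the study's methods describe as immortalised by the 3T3 protocol and that lacks p100, the precursor that retains RelB in the cytoplasm. All cells carried this deletion, so no wild-type level was measured. The 8 ChIP-seq libraries that were analysed form 4 groups of 2, from cells given 10 ng/ml TNF for 0 h or for 6 h and precipitated with an antibody to RelA (p65, sc-372) or to RelB (sc-226). The labels do not say whether the 2 libraries of a group came from separate cultures, so the spread between them may be technical.

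RelA and RelB are NF-κB subunits that carry a transactivation domain, and both bind κB elements as dimers with p50. IRF proteins bind interferon-stimulated response elements and STAT proteins bind gamma-activated sequences. TNF can raise an interferon-like programme in several cell types by inducing IRF1 and interferon-β, and STAT3 is best known as the target of cytokines that signal through gp130.

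A site here is a stretch where peaks of the 6 h libraries overlapped by at least 1 bp, and its distance is taken from its centre to the start site. The strength of a peak is the log2 fold of ChIP over scaled input in its strongest window. The 6 h lists held 5192 to 7052 peaks with 120352 to 162105 reads in peaks, and the 0 h lists held 14 to 194 peaks. The fewest reads in the fullest window of any peak was 10, so weaker binding is not in the lists.

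At 0 h none of the 9 genes had a RelA or RelB peak within 50 kb, where 1.16% of protein-coding genes had one. The nearest 0 h peak to any of them was a RelA peak of 13 reads, 1.68 Mb from the start of Irf7. At 6 h 64 peaks formed 29 sites. Counting sites called in only 1 library, all 9 genes had at least 2 sites, where 21.6% of protein-coding genes had as many. Both RelA libraries shared a site at 8 of the 9 genes, against 14.1% of protein-coding genes. Both RelB libraries shared one at 7 genes, against 15%. A site called in all 4 libraries was found at 6 genes, namely Irf1, Irf2, Irf3, Irf5, Irf8 and Stat5a, against 9.82% of protein-coding genes. For 4 of these, Irf1, Irf2, Irf5 and Stat5a, such a site had a peak centre within 1 kb of the start site, against 1.09% of protein-coding genes. Because the genes were chosen with results of these data known, the shares describe them and carry no test.

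**Figure D1:**
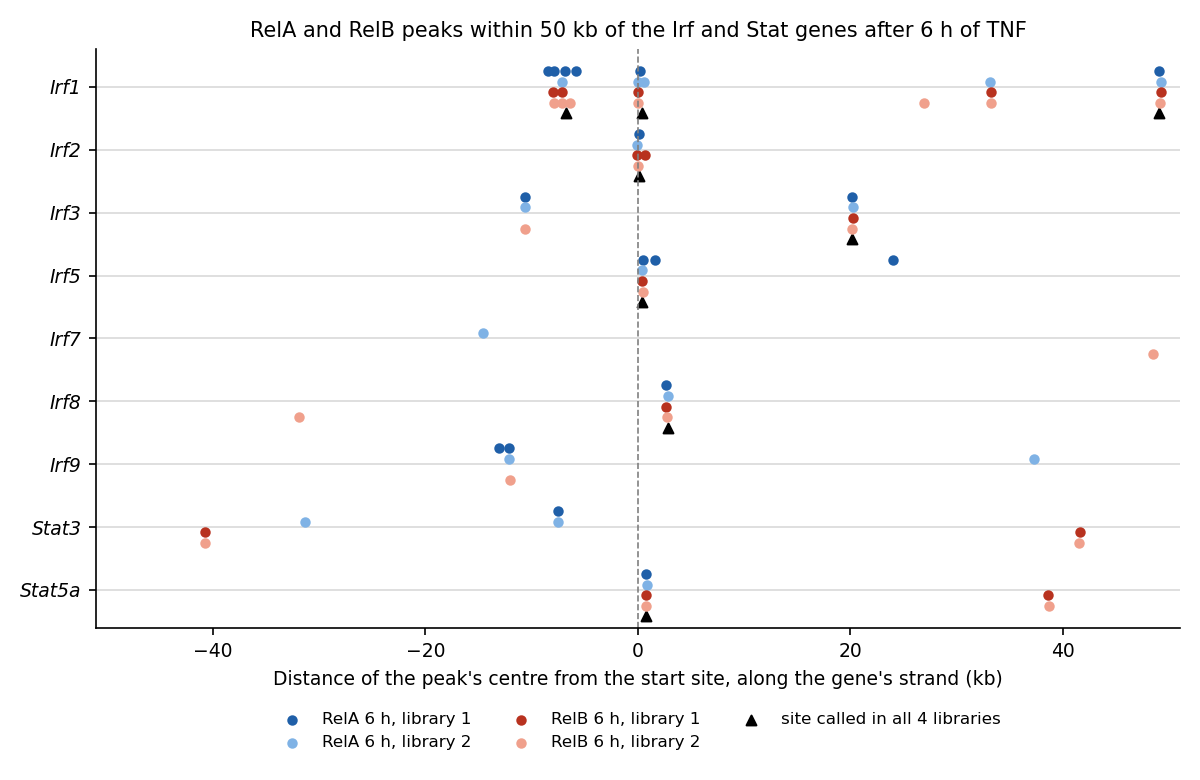
Position of every RelA and RelB peak of the 6 h libraries within 50 kb of the start site of each of the 9 genes. The horizontal axis is the distance in kb along the gene's strand with the start site at 0, each dot is the centre of 1 peak in 1 library, and triangles mark the centres of the 8 sites called in all 4 libraries. The reader should see 9 sites spread over the Irf1 region, 4 genes with a triangle at the start site, and only 2 peaks near Irf7.

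Irf1, the activator of the interferon-γ and antigen presentation programme, had the most sites of the 9 genes, with 9 sites built from 23 peaks. As many sites were found at 0.241% of protein-coding genes. Its promoter site, at chr11:53583456-53584291, was called in all 4 libraries, at a RelA log2 fold of 3.36 and 3.17 and a RelB log2 fold of 3.12 and 2.65. The RelA peaks held 61 and 54 reads and the RelB peaks 26 and 20. Both RelA libraries were thus above both RelB libraries in fold and in reads. The read counts are not like for like, because the RelA peaks covered more bases. The first RelA library had a peak of 480 bp, and the second had peaks of 77 and 385 bp with 34 and 20 reads. The RelB peaks were 81 and 86 bp. The site spans the start of the gene, with its centre in an intron 357.5 bp downstream. The sequence beside the start site is shown because the only κB match of the promoter lies there, centred 8.5 bp upstream of the start, on the plus strand of mm9 at chr11:53583377-53583535, with the match in capitals.
Irf1 promoter: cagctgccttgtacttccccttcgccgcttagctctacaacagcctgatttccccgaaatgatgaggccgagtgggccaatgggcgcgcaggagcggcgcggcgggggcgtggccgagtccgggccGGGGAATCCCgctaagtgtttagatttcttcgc

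A second site called in all 4 libraries lay 49.1 kb downstream of the Irf1 start, at chr11:53632343-53632854, in an intron of the annotated gene Gm12216. RelA log2 folds there were 3.23 and 3.91 with 34 and 50 reads, and RelB log2 folds were 2.68 and 2.67 with 11 and 19 reads. Here too both RelA libraries stood above both RelB libraries. This was the Irf1 site with the highest mean fold among those called in all 4 libraries, and its sequence at chr11:53632600-53632800 is shown for its density of κB matches, which overlap each other and fall into 3 separate stretches of capitals.
Irf1 downstream site: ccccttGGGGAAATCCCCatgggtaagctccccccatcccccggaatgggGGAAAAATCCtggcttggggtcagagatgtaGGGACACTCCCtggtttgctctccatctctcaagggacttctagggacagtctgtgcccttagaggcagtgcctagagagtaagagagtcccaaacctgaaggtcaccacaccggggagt

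The remaining Irf1 site in all 4 libraries, 6.79 kb upstream at chr11:53576172-53577286, spanned 1115 bp. Only the first RelA library had a broad peak there, of 1010 bp. The second RelA and the first RelB library had peaks of 204 and 205 bp, and the second RelB library had peaks of 203 and 418 bp. RelA log2 folds were 2.98 and 2.83 with 66 and 50 reads, and RelB log2 folds were 3.12 and 2.78 with 51 and 60 reads, so the antibodies overlapped. The RelB value of 2.78 came from the 418 bp peak, with 23 reads. The 203 bp peak of that library had a log2 fold of 2.55 from 37 reads. Within 100 bp of its centre lay the overlapping κB matches GGGACACCCC and GGACACCCCC. These lay only in the peak of the first RelA library. Farther out, the 1115 bp held κB matches GGGCTTTTCC and GGGAAACTCC and an interferon-stimulated response element core (GAAAGCGAAA). GGGCTTTTCC lay inside a peak of each of the 4 libraries. Gamma-activated sequences TTCCGGGAA and TTCCAGGAA also lay more than 100 bp from the centre. These outer matches are not in the window counts given below, and no share over all sites was taken for spans this long. A weaker neighbour at chr11:53575435-53575833, 7.88 kb upstream, was called in 3 libraries. Its log2 folds were 2.24 for the first RelA library and 1.92 and 2.23 for RelB, with 22, 11 and 13 reads.

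The highest folds near any of the 9 genes were those of RelB 33.2 kb downstream of the Irf1 start, at chr11:53616694-53616726, with log2 folds of 4.25 and 4.17 and 22 and 23 reads. Neither RelA library had a peak that overlapped this 33 bp site. The second RelA library had a peak of 13 reads and log2 fold 3.06 only 40 bp away, so the region was not free of RelA reads, and the first RelA library had its nearest peak 15617 bp away. The other 4 Irf1 sites were called in 1 library each. Just inside the 50 kb limit lay the RelA peak 49.2 kb from the Irf1 start with a log2 fold of 3.91. Just outside it, 51.8 kb from the start, lay a peak of the first RelA library with a log2 fold of 4.07 and 67 reads, part of a site called in all 4 libraries that is not counted here.

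By the strongest log2 fold within 50 kb in each of the 8 libraries, the protein-coding genes most like Irf1 were Espn, Hes2 and Acot7, each at a Euclidean distance of 0.217. These 3 genes lie near the same peaks, so they count as 1 region, whose strongest log2 folds were 3.44, 4.06, 4.12 and 4.15 in the 2 RelA and then the 2 RelB libraries at 6 h, against 3.36, 3.91, 4.25 and 4.17 for Irf1.

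Irf2 encodes a factor that competes with IRF1 for the same elements. Its main site spanned the start site at chr8:47824915-47825537, where RelA reached log2 folds of 2.98 and 2.91 from 41 and 34 reads, and RelB 3.12 and 2.97 from 44 and 35 reads. The 4 libraries lay within a narrow range and the antibodies overlapped. The only other Irf2 site was a RelB peak in 1 library, 671 bp downstream of the start. The sequence at chr8:47824993-47825118, plus strand, is shown because it holds a κB match centred 12.5 bp upstream of the start.
Irf2 promoter: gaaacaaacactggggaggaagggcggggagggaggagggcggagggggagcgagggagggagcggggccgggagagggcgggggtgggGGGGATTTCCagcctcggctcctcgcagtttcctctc

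Irf8 encodes a factor of myeloid and lymphoid differentiation. Its site in all 4 libraries was not at the gene's annotated start but 2.81 kb downstream, at chr8:123262847-123263288. The site's centre lay in an annotated UTR of Irf8, 528.5 bp downstream of the start of an alternative transcript. RelA log2 folds were 2.57 and 2.22 from 15 and 23 reads and RelB log2 folds 2.50 and 2.45 from 14 and 29 reads, the lowest mean fold of the 8 sites. RelA and RelB overlapped. The RefSeq promoter of the main start held 3 κB matches and no site in all 4 libraries overlapped it. The site held 2 κB matches. GGACTCCTCC on the minus strand, at chr8:123263092-123263101, is the one within 100 bp of the centre. The other is shown with 10 bases on each side, at chr8:123262865-123262894, because its 10 letters are those of the Irf2 promoter.
Irf8 site: caactgctttGGGGATTTCCaggctgttct

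The run GGGGATTTCC shared by Irf2 and Irf8 was present on either strand in 170 of the 1860 sites called in all 4 libraries, or 9.14%. One further peak near Irf8, 31.9 kb upstream, was called in the second RelB library alone.

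Irf3 encodes the latent factor that TBK1 phosphorylates after nucleic acid sensing, and no peak lay at its own start site. Both of its sites lay at the starts of neighbouring genes. The site in all 4 libraries, 20.1 kb downstream at chr7:52273013-52273322, was 180.5 bp upstream of the start of Rras, a Ras family GTPase gene. RelA log2 folds were 2.48 and 2.70 with 25 and 28 reads, and RelB log2 folds were 2.36 and 2.38 with 17 and 29 reads, so that both RelA folds lay above both RelB folds by a small margin while the reads overlapped. The second site, 10.6 kb upstream at chr7:52242263-52242500, was 519.5 bp from the start of Prmt1, an arginine methyltransferase gene, with log2 folds of 2.66 and 2.67 for RelA and 2.23 in the second RelB library, from 18, 37 and 11 reads. The window of the first site, chr7:52273069-52273269, is shown because its single κB match, GGAATTCCCC, lies close to the centre.
Irf3 downstream site: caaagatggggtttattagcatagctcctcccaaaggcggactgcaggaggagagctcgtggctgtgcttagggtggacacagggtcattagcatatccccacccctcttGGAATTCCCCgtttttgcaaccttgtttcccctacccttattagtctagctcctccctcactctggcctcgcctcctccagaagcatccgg

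Irf5, an activator of inflammatory cytokine genes downstream of Toll-like receptors, had its site in an intron 398 bp downstream of the start, at chr6:29476902-29477144. RelA log2 folds were 3.36 and 3.17 with 55 and 44 reads, and RelB log2 folds were 3.12 and 2.73 with 33 and 28 reads. The RelA values again stood above the RelB values. The 2 other Irf5 sites came from the first RelA library alone. The window chr6:29476884-29477084 is shown because it holds 2 separate stretches of κB matches.
Irf5 intron site: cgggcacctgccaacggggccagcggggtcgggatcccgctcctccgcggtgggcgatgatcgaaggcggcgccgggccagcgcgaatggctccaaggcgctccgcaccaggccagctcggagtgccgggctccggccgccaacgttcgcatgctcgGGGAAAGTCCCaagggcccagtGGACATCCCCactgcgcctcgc

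Irf7, the interferon-inducible factor that amplifies interferon-α, was the gene with the least binding and had no site in both libraries of either antibody. Its strongest peak, 14.6 kb upstream in the second RelA library, had a log2 fold of 3.58 from 11 reads and 0 input reads, so the fold rests on the ChIP reads alone. The other Irf7 peak, 48.4 kb downstream in the second RelB library, had 11 reads and a log2 fold of 2.23. The false discovery rates of these peaks, 0.0882 and 0.0901, were close to the limit of 0.1 used for the lists.

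Irf9, the DNA-binding subunit of an interferon-activated complex, had a site in both RelA libraries 12.2 kb upstream, at chr14:56210189-56210300, which lay 294.5 bp from the start of Psme2, a proteasome activator gene. RelA log2 folds were 3.49 and 3.27, each from 25 reads. Neither RelB list held an overlapping peak. The second RelB library had a peak of 15 reads and log2 fold 3.10 at a gap of 4 bp, whereas the first RelB library had its nearest peak 1018135 bp away. The start nearest to that RelB peak was that of another gene, Rnf31, 223 bp from its centre, so the Irf9 site lay close to both starts. The other Irf9 sites were each called in 1 library. The window chr14:56210139-56210339 is shown because its κB run GGGACTTCCC is a frequent one, present in 83 of the 1860 sites called in all 4 libraries, or 4.46%.
Irf9 upstream site: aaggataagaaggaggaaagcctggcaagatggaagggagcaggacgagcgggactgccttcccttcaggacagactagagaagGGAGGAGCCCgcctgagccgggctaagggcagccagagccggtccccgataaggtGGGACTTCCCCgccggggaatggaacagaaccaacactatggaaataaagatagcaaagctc

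Stat3 and Stat5a are neighbours on chromosome 11. Stat5a, which transmits prolactin, growth hormone and interleukin signals, had its site in all 4 libraries 765 bp downstream of the start in an intron and 229 bp upstream of the start of another Stat5a transcript. RelA log2 folds were 2.57 and 2.62 with 11 and 13 reads, and RelB log2 folds were 3.18 and 3.79 with 29 and 46 reads. This was the only one of the 8 sites at which both RelB libraries stood above both RelA libraries. The RelA peaks were thin, with false discovery rates of 0.0844 and 0.0499. The site also lies within 50 kb of Stat5b.

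Stat3 had no site in all 4 libraries and no peak at its most upstream start. Its sites separated by antibody. A site 7.52 kb upstream, at chr11:100808311-100808438, was called for RelA alone, with log2 folds of 2.57 and 2.58 and 23 and 18 reads. A site 40.7 kb upstream, at chr11:100841562-100841593, was called for RelB alone, with log2 folds of 2.13 and 1.97 and 11 and 13 reads. A further RelB site at chr11:100759122-100759348, with log2 folds of 3.07 and 3.70 and 11 and 20 reads, lay in a Stat3 intron 41.6 kb downstream of the Stat3 start and 38.6 kb downstream of the Stat5a start, and is counted for both genes. Its centre lay 607 bp from the annotated start of another, shorter Stat3 transcript. At each of these 3 sites the nearest peak of the other antibody was at least 9240 bp away. None of them held a κB match, and neither did the Irf1 sites 7.88 kb upstream and 33.2 kb downstream.

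**Figure D2:**
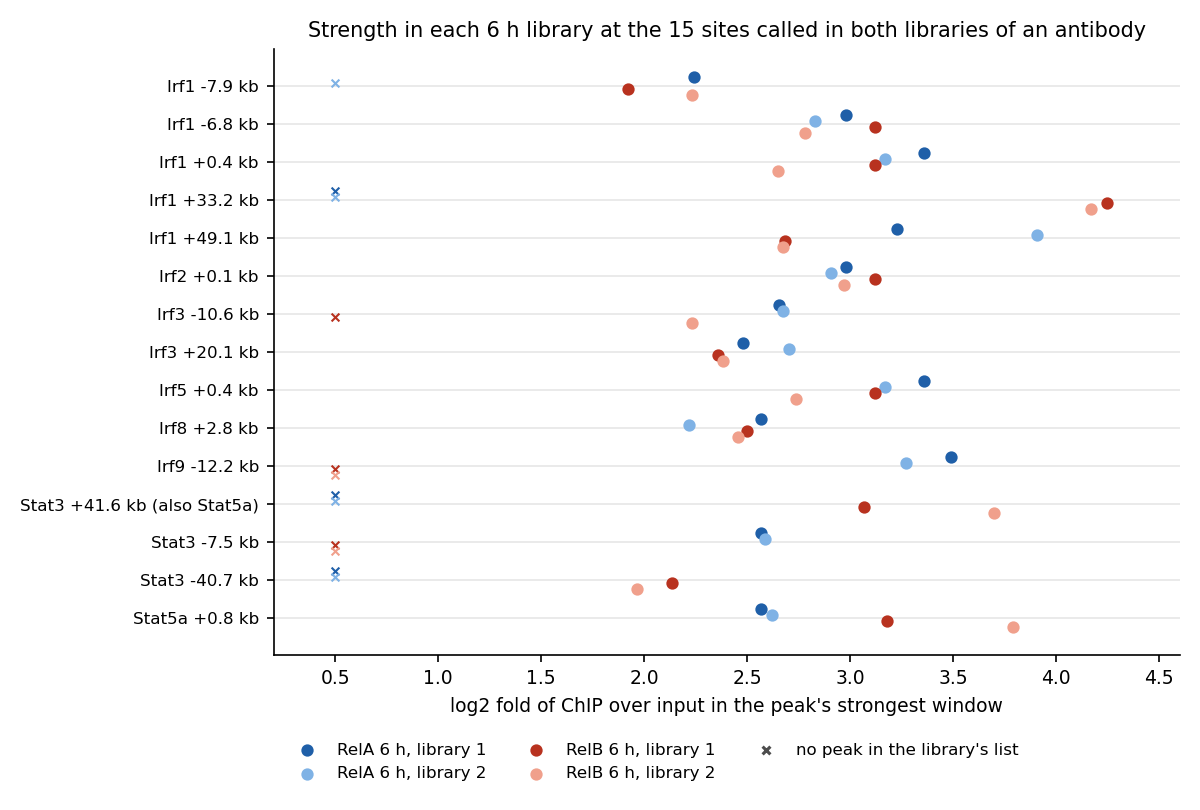
Strength of each 6 h library at the 15 sites called in both libraries of RelA or of RelB near the 9 genes. The horizontal axis is the log2 fold of ChIP over input, each dot is 1 library, and a cross at the left edge marks a library with no peak at that site and has no value. The RelB dots of the Irf1 site at 33.2 kb, at 4.25 and 4.17, are the highest, and 5 sites have dots of 1 antibody only.

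Of the 15 distinct sites called in both libraries of an antibody, 8 were called in all 4 libraries, where 46.1% of all 4034 such sites were. For RelA without any RelB peak there were 2 sites, at Irf9 and Stat3, against 9.69% of all such sites. For RelB without any RelA peak there were 3 sites, at Irf1 and Stat3, against 14.3%. These counts rest on the overlap of at least 1 bp. The Irf9 site had a RelB peak at a gap of 4 bp, and the Irf1 site had a RelA peak 40 bp away. A missing call means that the library's list held no peak there, and the reads at those places were not analysed here. The 14 sites called in 1 library had log2 folds of 2.23 to 3.70 from 11 to 22 reads.

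The strength of RelA and RelB was compared with limma over all 1860 sites called in all 4 libraries, each library centred on its median, with the values of these 8 sites taken from that fit. limma called 11 sites at an adjusted p under 0.05 (0.591%), and 0 of these 8 sites were among them. An unadjusted limma p under 0.05 was found at 2 of the 8 and at 313 of all 1860 sites. The Irf1 downstream site had a RelA minus RelB difference of 0.97 in log2 (95% interval 0.30 to 1.64, limma adjusted p = 0.163), and 5.27% of all 1860 sites differed by as much in either direction. The Stat5a site had a difference of -0.81 (interval -1.45 to -0.17, limma adjusted p = 0.2), and 9.84% of sites differed by as much. The Irf1 promoter (0.46, interval -0.17 to 1.10) and the Irf5 intron site (0.42, interval -0.20 to 1.04) did not pass the test, and without the second RelB library each difference was 0.14. With reads in the peak as the measure of strength the Irf1 promoter differed by 1.35 and the Stat5a site by -1.59 (limma adjusted p = 0.0789 and 0.0552). These reads were not adjusted for the length of the peak. At Stat5a the RelA peaks were 29 and 29 bp and the RelB peaks 172 and 131 bp. At Irf2 the difference was -0.02 (interval -0.61 to 0.57) and at Irf8 it was -0.0012 (interval -0.60 to 0.60), so differences of that width in either direction remain possible. In uncentred folds both RelA values lay above both RelB values at 4 of the 8 sites, against 19.2% of all sites, and below them at 1, against 29.5%. The median over both RelA libraries and over both RelB libraries of the 8 sites was 2.92 and 2.91, and over all 1860 sites it was 3.16 and 3.25.

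**Figure D3:**
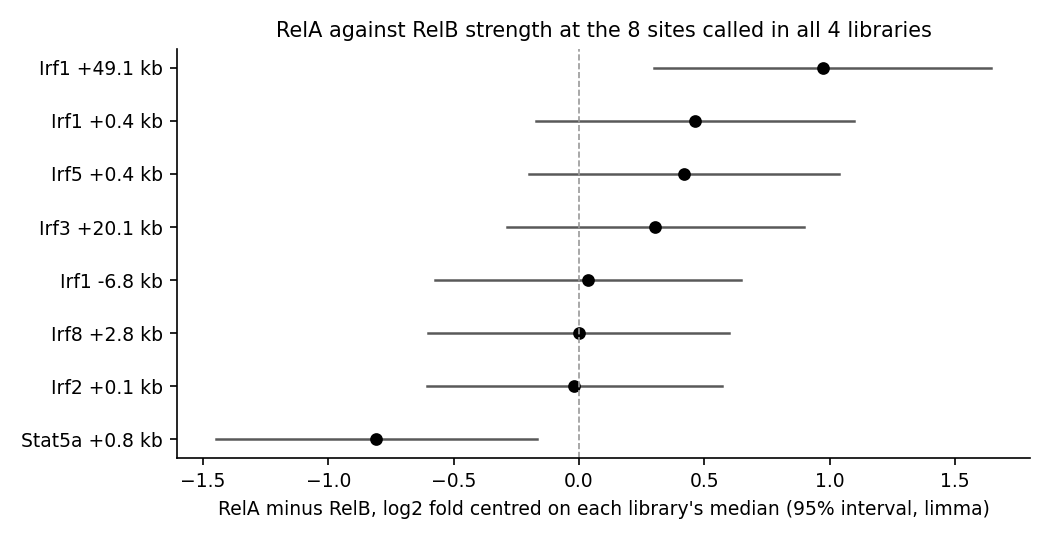
Difference in strength between RelA and RelB at the 8 sites called in all 4 libraries near the 9 genes. The horizontal axis is RelA minus RelB in log2 fold after centring each library on its median, dots are the limma estimates from 2 libraries per antibody and bars their 95% intervals. The intervals of the Irf1 site at 49.1 kb (0.30 to 1.64) and of Stat5a (-1.45 to -0.17) lie off 0, and neither site passed the adjusted test.

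The κB consensus of 10 bases was looked for in the 100 bp on either side of each site's centre, reading both strands. It was found in 8 of the 15 sites called in both libraries of an antibody, or 53.3% (Wilson 95% interval 30.1 to 75.2), against 67.4% of all 4034 such sites. In windows 1000 bp to each side it was found in 26.7% for these genes and 11.9% for all sites. Among sites called in all 4 libraries it was found in 6 of 8, against 73.9% of all 1860. The order of these shares turned with the window. In the 50 bp on either side of the centre they were 53.3% for these genes against 45.3% for all sites, in the 100 bp on either side of the strongest position 66.7% (10 of 15) against 65.4%, and over the whole site 66.7% against 74.8%. The core of the interferon-stimulated response element, GAAA on both sides of any 2 bases, was found in 1 of the 15 windows, the Stat3 site 40.7 kb upstream, against 3.82% of all such sites, and the gamma-activated sequence TTCNNNGAA and the AP-1 motif TGANTCA in 0 of 15, against 11.01% and 17.3%. RefSeq promoters (GRCm38.p6, 250 bases before to 50 after a start) were matched for all 9 genes, and 26.8% of the 32851 RefSeq promoters held a κB match. Gamma-activated sequences lay in the promoters of Irf1 (TTCCCCGAA), Irf2 (TTCCGAGAA) and Irf8 (TTCTCGGAA and TTCAGAGAA), against 8.30% of RefSeq promoters. The interferon-stimulated response element core lay in that of Irf2 (GAAAATGAAA), against 3.44%. These promoter matches fell outside the windows counted above. A match is a run of letters and was not tested for binding.

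The rest of the pathway was read from 58 genes in 6 fixed lists. Of these, 27 had a site in both RelA libraries and 21 in both RelB libraries, against 14.1% and 15% of protein-coding genes. In all 4 libraries 16 had one (27.6%, against the 9.82% of protein-coding genes given above). At 0 h 0 had a peak, against 1.16%. These lists too were chosen with results of these data known. Among interferon-β and the interferon receptors 5 of 7 were near a site called in all 4 libraries. For 4 of them, among them Ifnar1, Ifngr2 and Il10rb, it lay within 1 kb of the start, against 1.09% of protein-coding genes. The Il10rb site, whose RelA log2 folds were 4.09 and 3.91 and RelB log2 folds 4.25 and 4.17, is also the strongest of Ifnar2, so these genes are not separate counts.

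For sites in all 4 libraries, the interferon-stimulated genes themselves were close to the background of 9.82%. Of 18, 2 (11.1%) had such a site, Cxcl10 and Bst2. A site in both RelA libraries was found at 5 of the 18, against 14.1% of protein-coding genes. In both RelB libraries 4 had one, against 15%. Cxcl10, a chemokine gene, had its site 300.5 bp upstream of the start with RelA log2 folds of 4.47 and 4.28 and RelB log2 folds of 3.56 and 4.43. Of 11 inhibitors of cytokine signalling 1 had a site in all 4 libraries, Socs4, and of 4 JAK kinases 1 did, Tyk2, at a mean log2 fold of 4.17. Of 10 nucleic acid sensing genes 3 did, Traf3 and Ddx58 close to their starts and Zbp1 at 38.8 kb. On the gp130 side of STAT3, 4 of 8 did, namely Lif, Osm, Osmr and Il6st, at sites 10.6 to 42.5 kb from the start.

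**Figure D4:**
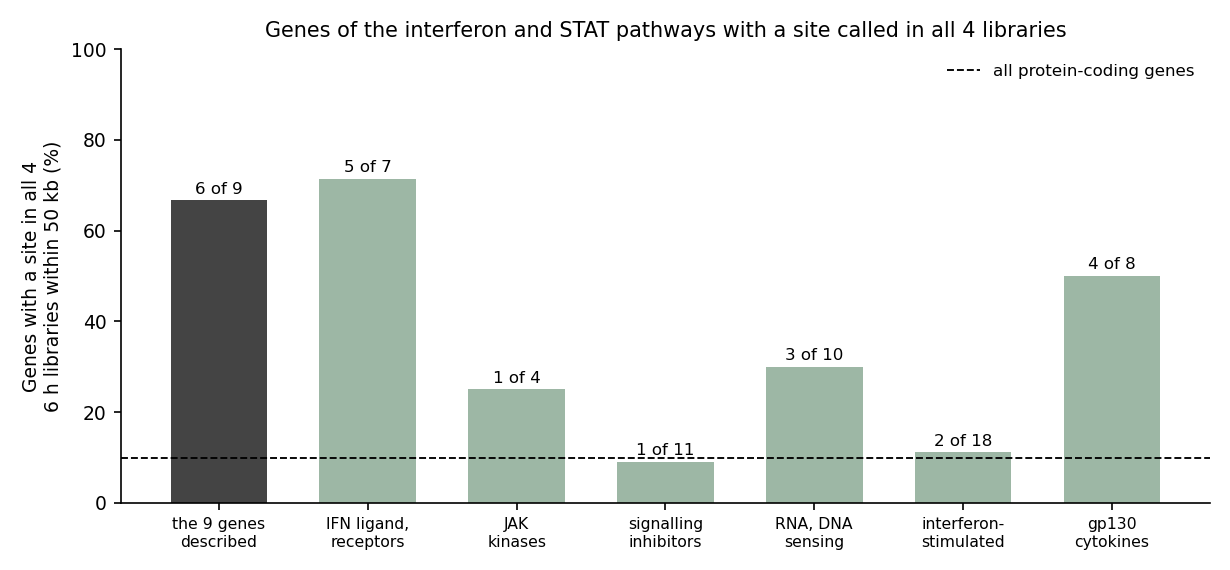
Share of genes with a site called in all 4 of the 6 h libraries within 50 kb of the start site, for the 9 genes described and for 6 fixed lists of interferon and STAT pathway genes. Bars are percent of genes with the counts printed above them, and the dashed line is the 9.82% of all protein-coding genes. The 9 genes (6 of 9) and the interferon ligand and receptors (5 of 7) stand well above the line, and the inhibitors (1 of 11) and interferon-stimulated genes (2 of 18) lie at it.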

How the data were processed

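ChIP-seq reads of the 8 NfkB2-/- libraries were trimmed with cutadapt and below a quality of 20, and unique alignments to mm9 were kept with Bowtie, per the labels and the study's methods; tool versions are not given in the sources used here. The authors called peaks in each library with cisGenome against NfkB2-/- input in 200 bp windows, at an FDR under 0.1 and a fold above 2. The deposited values used are the FDR (a q-value), the log2 fold of the strongest window over scaled input, and the unnormalized counts of ChIP and input reads. The input library was not analysed here. The fold equalled log2 of the window's reads plus 1, within 0.001, in 100% of the 238 peaks with 0 input reads, so a fold from few reads is set by those reads.

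The 9 genes and the lists of pathway genes were chosen with earlier results of these data known. Start sites come from GENCODE vM1 (mm9), and a gene's start is the most upstream base of its annotation. Genes were named by 1 rule: each site in both libraries of an antibody is described, up to 4 genes of each list by mean fold at a site in all 4 libraries, the 3 genes most like Irf1, and sequences for each gene's strongest such site, to which the Irf1 promoter and the Irf9 site were added after their values were seen, as were the names of genes whose start lies beside a site or that share one; some genes and 1 sequence are not reported here. Printed windows are centred on the median strongest position, also chosen after seeing the data, and hold at most 20 bases of a UTR at an end; the Irf8 stretch lies in a UTR and is 30 bases centred on its match. Strength was tested with limma 3.58.1 in R 4.3.3 (lmFit, eBayes, Benjamini-Hochberg adjustment), checked on simulated data. Other work used Python 3.11.15. Total reads per library are unknown, so no detection limit could be given, and the Wilson interval covers counting error only, while the limma intervals rest on the spread between libraries.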

Additional observations from a re-analysis of the deposited data

How the results depend on the processing

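The number of sites near the 9 genes at 6 h fell from 29 to 16 with peaks at an FDR under 0.01 and to 12 within 10 kb of the start. It was 25 to 29 with 1 library left out. The number of genes with a site in both RelA libraries, in both RelB libraries or in all 4 stayed within 1.5 times its value under every alternative run, among them a 100 kb limit, any transcript's start and joining peaks within 100 bp, the last added after the data were examined. At an FDR under 0.01 a site in all 4 libraries was left at 4 of the 6 genes, without Irf8 and Stat5a. With 1 library left out these numbers were 7 to 9, 7 to 9 and 5 to 6. There the antibody of the dropped library is counted from its 1 remaining library, and all 4 means all that remain. These values are thus not the same measure. No gene had a 0 h peak under any alternative run, 100 kb included. The share of sites with a κB match was 53.3% to 75% across its alternatives, on either side of the share of all sites.

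The number of sites that limma called between RelA and RelB rested on the setting: 11 in the reported fit, 85 with a replicate block, 22 with reads in the peak as strength, 30 at an FDR under 0.01, and 0 to 31 with 1 library left out, 0 without the first RelA or the second RelB library and 31 without the second RelA library. The cause was not tested. The labels do not say whether libraries of the same number share more than that number. Their deviations correlated at -0.0026 over 1860 sites. With only 2 pairs this value cannot decide whether they were paired. Of the 72 combinations of the 8 sites with 9 alternatives, 68 gave a value and 0 of these passed the test (lowest limma adjusted p 0.0552). The sites of Irf8, of Stat5a and 49.1 kb from Irf1 could not be fitted at an FDR under 0.01, nor Stat5a without the first RelB library. The sign of the difference turned in 9 of 68 values, all at sites whose difference was near 0. At the Irf1 site 6.79 kb upstream it was -0.046 without centring and -0.21 to 0.21 with 1 library left out. At Irf2 it was 0.0076 at an FDR under 0.01 and -0.18 to 0.061 with 1 library left out. At Irf8 it was 0.027 under quantile normalization and -0.12 to 0.18 with 1 library left out.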
